A study of Homo sapiens with 12 samples.

Results

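The integrin subunits examined here are 10 genes, ITGA1, ITGA2, ITGA3, ITGA5, ITGA6, ITGAV, ITGB1, ITGB4, ITGB5 and ITGB8, of 11963 genes measured in RCC4 cells. They were found by symbol: every probe set that the platform annotation assigned to exactly 1 of these genes was taken, and a gene was given the mean of its probe sets. This gave 22 of 19064 probe sets with 1 gene symbol, and all 10 genes were measured. RCC4 is an established clear cell renal carcinoma line. Its transcriptome was profiled on Affymetrix human expression arrays to ask which part of the response to silencing of MESH1, an NADPH phosphatase, depends on ATF4, the transcription factor of the integrated stress response.

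All cultures were RCC4 cells transfected by lipofection with 40 pmol of siRNA and collected after 72 h, and the groups of 3 arrays, labelled as biological replicates, differed in the siRNA alone per the labels. The siNT group received a non-targeting control siRNA, siMESH1 a single siRNA against MESH1, siATF4 a pool against ATF4, and siMESH1+siATF4 both. How the 40 pmol was divided between both siRNAs is not given in the sources used here. With a single MESH1 siRNA, effects of that sequence on other transcripts cannot be told apart from effects of MESH1 loss, and RCC4 is 1 line. Effects of the siATF4 pool on other transcripts likewise cannot be told apart from effects of ATF4 loss. The study itself took genes affected by siATF4 alone as off-target effects and left them out of its analysis. ITGA1 and ITGA5 were among the genes called here in siATF4 against siNT. From each probe set's log2 signal the average over siNT was taken away, so the values hold changes and no levels. The level of 1 subunit therefore cannot be set against that of another, and the markers of a cell type can be followed only as changes.

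Integrins are receptors made of an alpha and a beta chain that span the plasma membrane, bind the extracellular matrix outside and connect to the actin or keratin cytoskeleton inside. The alpha chain largely sets the ligand. ITGA1 and ITGA2 form collagen receptors, ITGA3 and ITGA6 laminin receptors, and ITGA5 the classical fibronectin receptor, all with ITGB1. ITGAV joins ITGB1, ITGB5 or ITGB8 in receptors for ligands with the RGD motif, and ITGA6 with ITGB4 anchors epithelial cells to laminin in hemidesmosomes. In the renal tubule these receptors hold the epithelium on its basement membrane, a sheet of laminins, type IV collagen and nidogen.

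The silenced genes were read first. ATF4, with 1 probe set, lay at -2.29, -2.33 and -2.30 in siATF4 and at -2.27, -2.46 and -2.23 in siMESH1+siATF4, against -0.10, 0.00 and 0.10 in siNT. Its changes were -2.31 (adjusted p = 8.2e-10) and -2.32 (adjusted p = 1.6e-10), and it lay at -0.03 in siMESH1 (adjusted p = 0.81). No probe set was named for HDDC3, the gene of MESH1 (0 found), so on these arrays the silencing of MESH1 rests on the labels. Apart from the arrays, the study reported lower MESH1 in siRNA-treated RCC4 cells by RNA-seq, RT-qPCR and Western blot. Adjusted p-values are those of limma with Benjamini-Hochberg adjustment over all 11963 genes, and a gene counted as called where that value was under 0.05 and the log2 change reached 0.5 in size, the fold minimum. Errors are standard errors of that fit unless given as SD, and 3 arrays a group limit the precision of every value.

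Across the family, 3 of the 10 subunits carried the called changes. ITGA1 was called in 4 of the 7 comparisons, ITGA5 in 4 and ITGA6 in 3, and the other 7 subunits in none. ITGA1 rose in each silenced group, ITGA5 rose in both groups that received siATF4, and ITGA6 fell with siMESH1 alone. ITGA1 and ITGA5 were each measured by 1 probe set, so their calls could not be compared between probe sets. In siMESH1 against siNT, 2 of 10 subunits were called, 1 higher and 1 lower, where 8.19% of all genes were called, 2.82% higher and 5.37% lower. In siATF4 against siNT, 2 of 10 were called, both higher, where 6.52% of all genes were called, 2.49% higher and 4.03% lower. In siMESH1+siATF4 against siNT, 2 of 10 were called, both higher, where 9.65% of all genes were called, 4.40% higher and 5.25% lower. The count of 2 stands on few genes in each case, and the family as a whole was not tested. The medians of the 10 subunits were 0.00, 0.13 and 0.10 in these comparisons, beside 0.03, 0.02 and 0.01 over all genes. The 3 comparisons share the siNT arrays.

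**Figure D1:**
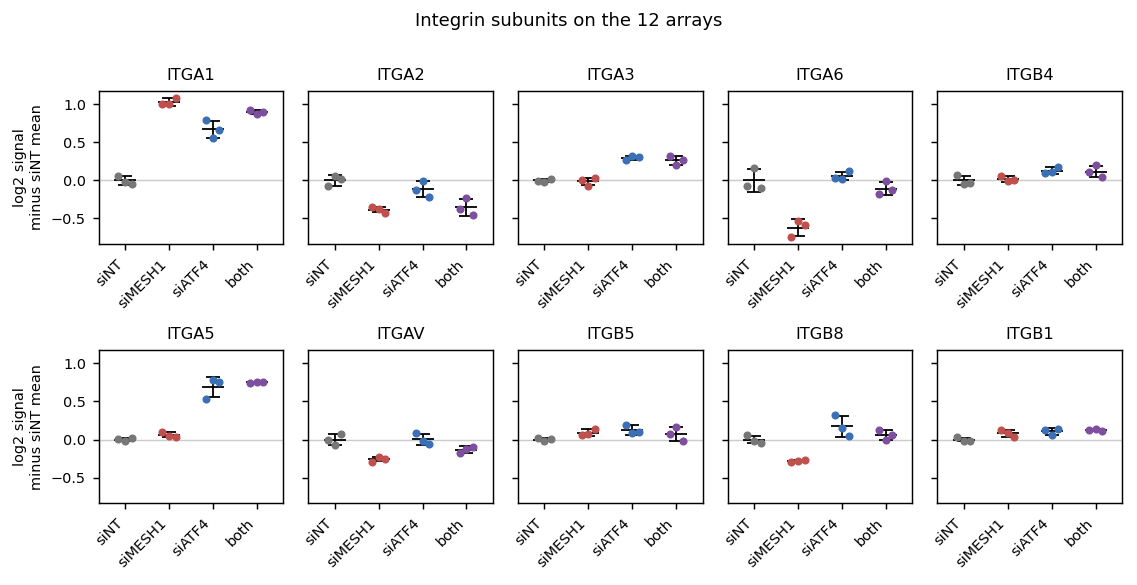
Log2 signal less the siNT mean, on the vertical axis, of each of the 10 integrin subunits on the 12 arrays, with 1 panel a gene and the groups siNT, siMESH1, siATF4 and both siRNAs along the horizontal axis. Points are arrays and bars are the group mean with its SD (n = 3). ITGA1 lies at 0.56 or higher on all 9 arrays with siMESH1 or siATF4, ITGA5 at 0.53 or higher on the 6 arrays with siATF4, and ITGA6 at -0.53 or lower on the 3 siMESH1 arrays.

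The starts of the 3 called genes and of ITGB5 are shown because ATF4 binds DNA and ITGB5 was the subunit with a match to its element. Each is the stretch of 250 bases before an annotated start, read 5′ to 3′ on the strand of the gene, from RefSeq on GRCh38.p14. Capitals mark any of 6 motifs searched on both strands: the ATF4 and C/EBP composite element (TGATGNAA), the cAMP response element (TGACGTCA), the AP-1 element (TGANTCA), the TATA box (TATAAA), the CCAAT box (CCAAT) and the GC box (GGGCGG).
ITGA1, plus strand, chr5:52787666-52787915: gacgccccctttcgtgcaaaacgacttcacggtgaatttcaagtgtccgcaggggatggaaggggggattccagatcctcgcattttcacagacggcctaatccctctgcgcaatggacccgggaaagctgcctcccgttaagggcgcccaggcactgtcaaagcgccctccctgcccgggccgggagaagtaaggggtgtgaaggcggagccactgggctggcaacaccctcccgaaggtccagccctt
ITGA5, minus strand, chr12:54419267-54419516: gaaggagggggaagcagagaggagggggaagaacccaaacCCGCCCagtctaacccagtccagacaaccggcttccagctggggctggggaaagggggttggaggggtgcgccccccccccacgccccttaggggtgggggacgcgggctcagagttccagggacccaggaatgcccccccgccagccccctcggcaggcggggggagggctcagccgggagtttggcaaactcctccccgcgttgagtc
ITGA6, plus strand, chr2:172427086-172427335: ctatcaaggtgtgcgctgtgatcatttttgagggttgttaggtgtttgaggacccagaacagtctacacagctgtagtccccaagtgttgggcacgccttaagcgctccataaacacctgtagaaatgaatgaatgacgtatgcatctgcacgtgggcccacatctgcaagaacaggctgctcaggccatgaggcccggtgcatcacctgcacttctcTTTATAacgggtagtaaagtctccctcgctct
ITGB5, minus strand, chr3:124901419-124901668: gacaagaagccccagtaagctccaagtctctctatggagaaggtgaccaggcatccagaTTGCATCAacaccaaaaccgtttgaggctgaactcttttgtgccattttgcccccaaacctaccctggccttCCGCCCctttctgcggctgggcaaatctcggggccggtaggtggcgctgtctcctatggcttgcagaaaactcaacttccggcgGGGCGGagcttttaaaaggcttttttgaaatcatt

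Of the 10 subunits, 8 had such a window, 13 windows in all, and ITGA3 and ITGB4 had none. The ITGA1 window held none of the 6 motifs, the ITGA5 window 1 GC box, and the ITGA6 window at the gene start 1 TATA box. A later ITGA6 start had a window with 3 GC boxes. The composite element was matched in 1 of the 13 windows, that of ITGB5 shown here, and it stands in 3.14% of all 35116 windows of this length. The cAMP response element and the AP-1 element were matched in 0 of the 13 (1.65% and 6.57% of all windows), the TATA box in 2 (10.7%), the CCAAT box in 1 (32.0%) and the GC box in 7 (42.6%). None of the motifs is contained in another. A match is a description of letters and no evidence of binding, and ITGB5 itself was called in none of the comparisons.

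The collagen receptors came out with opposite signs. ITGA1 encodes the chain that favours the type IV collagen of basement membranes. It lay at 0.06, -0.02 and -0.04 on the siNT arrays, at 1.01, 1.00 and 1.09 on the siMESH1 arrays, at 0.79, 0.56 and 0.66 on the siATF4 arrays, and at 0.92, 0.88 and 0.90 with both siRNAs. All 9 arrays of the silenced groups lay above the 3 siNT arrays, and the siMESH1 arrays were the highest, above those with both siRNAs, which lay above the siATF4 arrays. ITGA1 rose 2.05-fold in siMESH1, by 1.03 ± 0.06 on the log2 scale (adjusted p = 3.9e-08). It rose 1.59-fold in siATF4, by 0.67 ± 0.06 (adjusted p = 2.9e-06), and 1.87-fold with both, by 0.90 ± 0.06 (adjusted p = 1.1e-07). Neighbouring groups in this order were closer. The step from siATF4 to both was 0.23 ± 0.06 (adjusted p = 0.027), under the fold minimum, and siMESH1 against siATF4 was 0.36 ± 0.06 (adjusted p = 0.00042), also under it, though past it with housekeeping centring (0.54). Both against siMESH1 was -0.13 ± 0.06 (adjusted p = 0.13).

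ITGA1 spans chr5:52787916-52959209 (GRCh38.p14, plus strand) and shares its annotated start with PELO, a ribosome rescue factor gene that lies at its 5′ end. PELO was measured by a probe set of its own gene symbol. Its means were -0.03 ± 0.14 (SD) in siMESH1, 0.18 ± 0.07 in siATF4 and 0.00 ± 0.08 with both, against 0.00 ± 0.09 in siNT, so its arrays overlapped those of siNT in siMESH1 and with both siRNAs, where ITGA1 was highest, and lay above them in siATF4. The profile of ITGA1 over the 12 arrays was most like those of SNX2, a retromer-linked sorting nexin (Pearson's r = 0.986), NEDD9, a focal adhesion scaffold (r = 0.983), and HMGA1, a chromatin architectural protein (r = 0.978). Means of NEDD9 were 0.80 in siMESH1, 0.44 in siATF4 and 0.69 with both. These correlations describe 12 arrays in 4 groups, picked as the highest of all genes.

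ITGA2 lies next to it at chr5:52989352-53094779, with 30142 bases between the genes, and encodes the chain that favours fibrillar collagen. It lay at -0.08, 0.05 and 0.02 in siNT, at -0.35, -0.37 and -0.43 in siMESH1, at -0.12, -0.0009 and -0.22 in siATF4, and at -0.38, -0.23 and -0.45 with both. The arrays with siMESH1, alone or with siATF4, lay below all siNT arrays, whereas those of siATF4 overlapped them. The change was -0.38 ± 0.07 in siMESH1 (adjusted p = 0.00086) and -0.35 ± 0.07 with both (adjusted p = 0.0014), each under the fold minimum, and -0.11 ± 0.07 in siATF4 (adjusted p = 0.28). ITGA2 was also lower with both siRNAs than with siATF4, a difference of -0.24 ± 0.07 (adjusted p = 0.041), with no overlap of arrays. The sign of ITGA2 in siMESH1 was thus opposite to that of its neighbour ITGA1, at adjusted p-values under 0.05 in each. When each array was centred on the mean of 11 housekeeping genes, ITGA2 shrank to -0.05 in siMESH1 (adjusted p = 0.48) and -0.13 with both (adjusted p = 0.11), whereas ITGA1 stood at 1.36 in siMESH1.

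Among the laminin receptors ITGA6 fell with siMESH1, and the mean of its 2 probe sets stayed near the control when siATF4 was added. ITGA6 (chr2:172427336-172506459, plus strand) pairs with ITGB1 or, in hemidesmosomes, with ITGB4. Its values were -0.08, 0.17 and -0.09 in siNT, -0.75, -0.53 and -0.58 in siMESH1, 0.03, 0.02 and 0.12 in siATF4, and -0.18, -0.01 and -0.13 with both. The 3 siMESH1 arrays lay apart below the other 9, and the arrays with both siRNAs overlapped those of siNT. ITGA6 fell 1.54-fold in siMESH1, a log2 change of -0.62 ± 0.08 (adjusted p = 5.3e-05). It was 1.43-fold higher with both siRNAs than with siMESH1, by 0.52 ± 0.08 (adjusted p = 0.00033). Against siNT it was at 0.06 ± 0.08 in siATF4 (adjusted p = 0.66) and -0.11 ± 0.08 with both (adjusted p = 0.35).

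Both ITGA6 probe sets were lower in siMESH1, at -0.82 and -0.43, and both were higher with both siRNAs than with siMESH1, at 0.53 and 0.50. They parted with both siRNAs against siNT, at 0.07 for the one that may cross-hybridise and -0.28 for the other (adjusted p = 0.052). With both against siATF4 they lay at 0.01 and -0.34 (adjusted p = 0.06 for the latter). These p-values are from limma over single probe sets. The call of ITGA6 with both siRNAs against siMESH1 stood close to the fold minimum and was lost without siMESH1 replicate 1 (0.45) or siMESH1+siATF4 replicate 2 (0.47). With housekeeping centring ITGA6 kept its sign in siMESH1 but not its call (-0.29), as in both against siMESH1 (0.41). Of the 11 housekeeping genes 3, TFRC, HPRT1 and PGK1, were themselves called lower in siMESH1, as were PGK1 and YWHAZ in siATF4 (-0.61 each), and PGK1 with both (-0.94). The mean of the 11 lay at -0.33 in siMESH1, -0.15 in siATF4 and -0.22 with both. Its part in the ITGA6 and ITGA2 results was not tested.

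ITGA3 and ITGB4 were not called. ITGA3 (chr17:50056110-50090481), whose product binds laminins of the basement membrane, lay at 0.27, 0.32 and 0.31 in siATF4 and at 0.32, 0.21 and 0.27 with both, above all siNT arrays (-0.0004, -0.02 and 0.02) and all siMESH1 arrays (0.01, -0.07 and 0.03). Its changes of 0.30 ± 0.05 in siATF4 (adjusted p = 0.00041) and 0.26 ± 0.05 with both (adjusted p = 0.00077) were under the fold minimum. In siMESH1 ITGA3 was at -0.01 ± 0.05 (adjusted p = 0.88), or at 0.32 with housekeeping centring. Its 1 probe set is of the kind that may cross-hybridise. ITGB4 (chr17:75721459-75757818), the hemidesmosome chain, overlaps GALK1 and ranged from -0.04 to 0.20 over the 12 arrays, with adjusted p-values from 0.097 to 0.93 over the 7 comparisons. Its 4 probe sets disagreed in siATF4, from -0.16 to 0.36. The highest, which may cross-hybridise, had an adjusted p of 0.0063 there, and the others from 0.24 to 0.37. That probe set was also at 0.34 with both against siNT (adjusted p = 0.006) and 0.48 with both against siMESH1 (adjusted p = 0.00086). In siMESH1 against siATF4 it was at -0.496 (adjusted p = 0.00052). All these are under the fold minimum, by limma over single probe sets.

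The fibronectin receptor chain was the subunit past the fold minimum in both groups with siATF4 and not in siMESH1. ITGA3, described above, had smaller changes of the same sign in those groups. ITGA5 (chr12:54395261-54419266, minus strand) lay at 0.0012, -0.02 and 0.01 in siNT, at 0.10, 0.04 and 0.04 in siMESH1, at 0.53, 0.78 and 0.76 in siATF4, and at 0.74, 0.76 and 0.75 with both. The 6 arrays with siATF4 stood apart from the 6 without it, and within the siATF4 group replicate 1 was lower than the other 2 arrays. ITGA5 rose 1.62-fold in siATF4, by 0.69 ± 0.06 (adjusted p = 2.7e-06), and 1.68-fold with both, by 0.75 ± 0.06 (adjusted p = 7.8e-07). With both siRNAs it was higher than with siMESH1 by 0.69 ± 0.06 (adjusted p = 3.3e-06). With siMESH1 alone it was at 0.06 ± 0.06 (adjusted p = 0.52; 95% interval -0.07 to 0.19), or at 0.39 under housekeeping centring (adjusted p = 5.6e-05), and siMESH1 added to siATF4 gave the same difference, 0.06 (adjusted p = 0.62).

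Array controls were read beside these groups. For the control probe sets of ACTB, 3′ signal less 5′ signal was -0.29 ± 0.08 (SD) in siATF4 and -0.30 ± 0.13 with both, against 0.00 ± 0.06 in siNT and -0.11 ± 0.15 in siMESH1. The exact two-sided permutation p was 0.1 for siATF4, 0.1 for both siRNAs and 0.4 for siMESH1, where 0.1 is the smallest that 3 against 3 arrays allow, and the adjusted values over 12 tests were 0.3, 0.3 and 0.48. The same difference for GAPDH was smaller, at -0.09 ± 0.09 in siATF4, -0.02 ± 0.08 with both and 0.08 ± 0.12 in siMESH1. Its siNT value was 0.00 ± 0.02, and its permutation p was 0.2, 0.8 and 0.4 in the same order. The 18 hybridisation spike-in probe sets were at 0.25 ± 0.08 in siATF4, 0.07 ± 0.15 with both and -0.02 ± 0.04 in siMESH1. ITGA5 was as high with both siRNAs as in siATF4 alone, and the part of these controls in the ITGA5 result was not tested.

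ITGAV, the chain shared by the RGD receptors, and ITGB8, its partner in a receptor that activates latent TGF-beta, were both lower with siMESH1 alone. ITGAV (chr2:186590056-186680901) lay at -0.29, -0.23 and -0.25 in siMESH1, below the siNT arrays at -0.0044, -0.07 and 0.08. The change was -0.26 ± 0.05 (adjusted p = 0.0027), and ITGAV was at -0.13 ± 0.05 with both (adjusted p = 0.084) and 0.0037 ± 0.05 in siATF4 (adjusted p = 0.97). ITGB8 (chr7:20329766-20415754) lay at -0.29, -0.29 and -0.27 in siMESH1, below 0.06, -0.02 and -0.04 in siNT. Its change was -0.28 ± 0.07 (adjusted p = 0.0045), and it was higher with both siRNAs than with siMESH1, by 0.34 ± 0.07 (adjusted p = 0.0017). All of these are under the fold minimum. Under housekeeping centring the sign of both genes in siMESH1 turned, to 0.07 for ITGAV and 0.05 for ITGB8. The ITGB8 probe sets differed in size in siMESH1. The one that may cross-hybridise stood at -0.45 (adjusted p = 0.04) and the other at -0.12 (adjusted p = 0.47), by limma over single probe sets.

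ITGB5 (chr3:124761948-124901418), which with ITGAV binds vitronectin, ranged from -0.03 to 0.19 over the 12 arrays, with adjusted p-values from 0.12 to 0.89. Its 3 probe sets that may cross-hybridise lay between -0.02 and 0.10 in siATF4 and between -0.10 and 0.10 with both. The other stood at 0.36 (adjusted p = 0.0015) and 0.30 (adjusted p = 0.0035), under the fold minimum. These p-values are those of limma over single probe sets. ITGB1 (chr10:32900318-32958230), the common partner of the collagen, laminin and fibronectin chains, ranged from -0.01 to 0.14. Its change was 0.08 ± 0.05 in siMESH1 (adjusted p = 0.21), 0.11 ± 0.05 in siATF4 (adjusted p = 0.11) and 0.12 ± 0.05 with both (adjusted p = 0.054). The 95% intervals of ITGB1 in these comparisons ended at 0.18, 0.21 and 0.23. Under housekeeping centring the changes were 0.41 (adjusted p = 6.8e-06), 0.25 (adjusted p = 0.00069) and 0.35 (adjusted p = 3.8e-05), still under the fold minimum. Of its 5 probe sets, 1 of the kind that may cross-hybridise stood at 0.46 in siATF4, and the other 4 lay between -0.04 and 0.08.

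**Figure D2:**
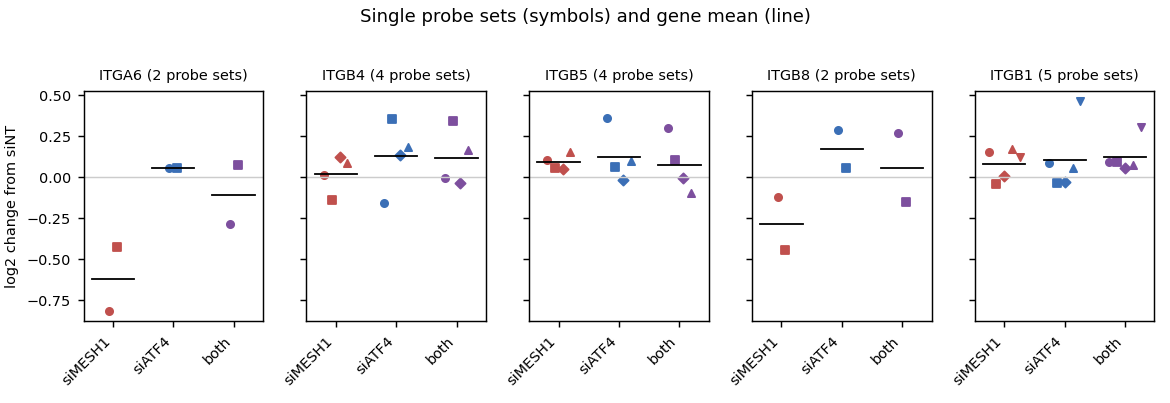
Log2 change of each probe set (symbols, vertical axis) and their mean (line) for the integrin subunits with more than 1 probe set, in siMESH1, siATF4 and both siRNAs against siNT. The ITGA6 probe sets lie at -0.82 and -0.43 in siMESH1, and 1 ITGB1 probe set stands at 0.46 in siATF4, apart from the other 4.

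Without the fold minimum, at an adjusted p under 0.05 alone, 5 of 10 subunits passed in siMESH1 (33.6% of all genes), 3 in siATF4 (28.6%) and 4 with both (35.6%). The 5 in siMESH1 were ITGA1, higher, and ITGA2, ITGA6, ITGAV and ITGB8, lower.

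The direct comparisons between the silenced groups gave 2 of 10 called for siMESH1+siATF4 against siMESH1, ITGA5 and ITGA6, both higher, where 6.10% of all genes were called, 3.42% higher and 2.68% lower. With no fold minimum 4 passed, ITGA3 at 0.28 ± 0.05 (adjusted p = 0.00081) and ITGB8 besides (28.0% of all genes). For siMESH1+siATF4 against siATF4, limma called 0 of 10, where 1.63% of all genes were called, 0.351% higher and 1.28% lower. At an unadjusted p under 0.05, 3 of the 10 passed in that comparison (24.3% of all genes), and with the adjusted p alone 2, ITGA1 and ITGA2 (11.7% of all genes). For siMESH1 against siATF4, 2 of 10 were called, both lower in siMESH1, where 8.66% of all genes were called, 3.91% higher and 4.75% lower. These were ITGA6 at -0.68 ± 0.08 (adjusted p = 2.4e-05) and ITGA5 at -0.63 ± 0.06 (adjusted p = 4.6e-06), and both fell under the fold minimum with housekeeping centring, to -0.50 and -0.45. Without the fold minimum 7 of 10 passed there (33.5% of all genes), and ITGA1 was the one higher in siMESH1. The median of the subunits was 0.11, -0.04 and -0.27 in these comparisons, beside -0.01, -0.0007 and 0.0026 over all genes.

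**Figure D3:**
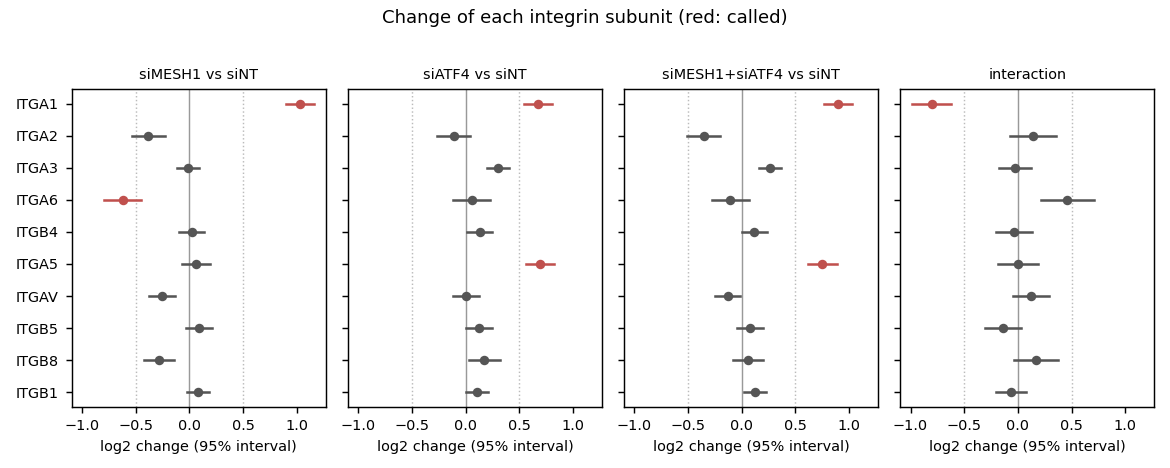
Log2 change (horizontal axis, with its 95% interval) of each integrin subunit against siNT in siMESH1, siATF4 and both, and the interaction in the panel on the right. Red points are called, and dotted lines mark the fold minimum of 0.5. ITGA1 is red in all 4 panels, ITGA6 in siMESH1 alone, and ITGA5 in the 2 panels with siATF4.

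Whether siATF4 altered the change with siMESH1 was tested as an interaction, that is, the change with siMESH1 in the presence of siATF4 less the change with siMESH1 in its absence. Of the 10 subunits 1 was called, ITGA1, lower, where 4.31% of all genes were called, 3.46% higher and 0.853% lower. For ITGA1 siMESH1 added 1.03 without siATF4 and 0.23 with it, an interaction of -0.80 ± 0.08 (95% interval -0.99 to -0.62; adjusted p = 5.3e-05). The changes with each siRNA alone summed to 1.70, and the change with both was 0.90. ITGA6 went the other way. Its change with siMESH1 was -0.62 without siATF4, and with siATF4 it was -0.16 ± 0.08 (adjusted p = 0.24), an interaction of 0.46 ± 0.11 (95% interval 0.21 to 0.70; adjusted p = 0.02), under the fold minimum. This value passed the minimum without siNT replicate 3 (0.51) or siMESH1 replicate 2 (0.50). It no longer passed the adjusted p under housekeeping centring (0.20; adjusted p = 0.13) or without the probe set that may cross-hybridise (0.48; adjusted p = 0.058). ITGA5 showed the sum of its single changes, 0.75, in the double silencing (0.75), with an interaction of 0.00 (95% interval -0.19 to 0.19), or -0.26 under housekeeping centring (adjusted p = 0.018). The other 7 subunits had interactions from -0.14 (ITGB5) to 0.17 (ITGB8), with adjusted p-values from 0.29 to 0.87. With no fold minimum 2 of 10 passed, ITGA1 and ITGA6 (11.9% of all genes). The median over the subunits was -0.01 and that over all genes -0.02.

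**Figure D4:**
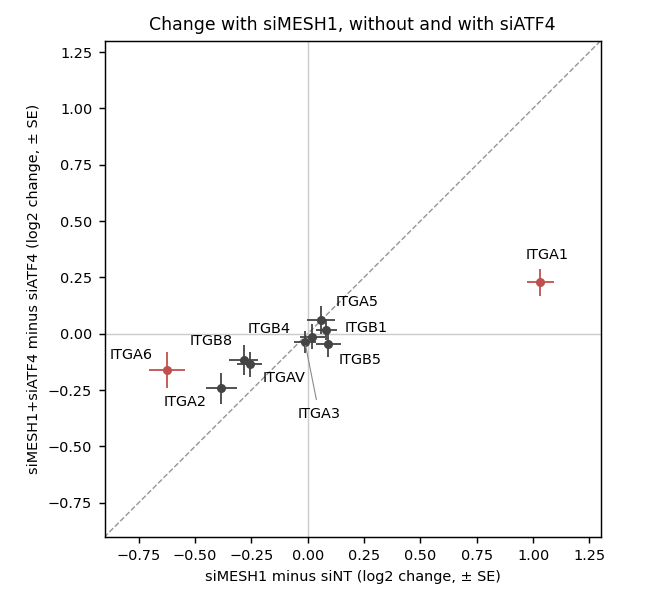
Log2 change with siMESH1 in the absence of siATF4 (horizontal axis, siMESH1 minus siNT) against that in its presence (vertical axis, siMESH1+siATF4 minus siATF4) for each integrin subunit, with standard errors of the fit. On the dashed line both are equal. ITGA1 (1.03 and 0.23) and ITGA6 (-0.62 and -0.16), in red, had an adjusted p under 0.05 for the interaction.

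Genes that work with integrins were read from lists by role, and their counts stand beside 8.19%, 6.52% and 9.65% of all genes called in siMESH1, siATF4 and both against siNT. Among 13 measured subunits outside the 10, most of them leukocyte or platelet chains, ITGAE was the one called in siMESH1, and the median was 0.01 in siMESH1, 0.04 in siATF4 and 0.01 with both. ITGB2, a leukocyte chain, was called in siATF4 (0.51; adjusted p = 0.0012), by 1 probe set that may cross-hybridise. That call was lost under array median centring (0.49) and without siNT replicate 2 or 3 or siATF4 replicate 2 or 3. ITGA8, a chain found in kidney mesenchyme, was called in the interaction (-0.52, adjusted p = 0.019), which fell short under array median centring (-0.49) or when siNT replicate 2, siMESH1 replicate 2 or siMESH1+siATF4 replicate 3 was left out. ITGAE, which binds E-cadherin in place of matrix, lay at -1.76, -1.68 and -1.84 in siMESH1, at -0.23, -0.32 and -0.28 in siATF4, and at -0.85, -1.04 and -0.89 with both, against -0.01, 0.12 and -0.10 in siNT. It fell 3.39-fold in siMESH1 (-1.76 ± 0.07; adjusted p = 1.7e-09) and was 1.78-fold higher with both than with siMESH1 (0.83 ± 0.07; adjusted p = 2.2e-06), with an interaction of 1.11 ± 0.10 (adjusted p = 1.6e-05). ITGAE overlaps HASPIN, which was not measured, and P2RX5, which was measured but whose values were not read here. These neighbours on the genome were looked up after the ITGAE values were seen.

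Of 37 measured ligands of the matrix and plasma, 4 were higher and 2 lower in siMESH1, where 2.82% of all genes were called higher and 5.37% lower. In siATF4 4 were higher (2.49% of all genes) and with both 8 (4.40%). LAMB3, the beta chain of laminin-332, to which ITGA3 and ITGA6 bind, lay at -1.52, -1.47 and -1.43 in siMESH1 and at 0.90, 0.99 and 1.11 in siATF4. With both it lay at 0.14, 0.14 and 0.02, which overlapped the siNT arrays at -0.14, 0.13 and 0.01. LAMB3 fell 2.78-fold in siMESH1 (adjusted p = 1.2e-08) and rose 2.00-fold in siATF4 (adjusted p = 5.8e-07), and it was 2.97-fold higher with both than with siMESH1 (adjusted p = 2.6e-08). ITGA6 and its ligand chain LAMB3 were thus both lower in siMESH1 and both higher when siATF4 was added to it. They parted in siATF4 alone, where LAMB3 rose and ITGA6 was at 0.06. LAMB3 was also called lower with both siRNAs than with siATF4 (-0.90, adjusted p = 1.2e-05), where ITGA6 was not called. The LAMB3 interaction was 0.57 (adjusted p = 0.0035), a call lost under housekeeping centring (0.32).

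FN1, fibronectin itself, rose by 0.72 in siMESH1, 0.75 in siATF4 and 1.04 with both (adjusted p = 3.1e-07, 3.1e-07 and 7.6e-09). Without probe sets that may cross-hybridise its changes were 0.42, 0.11 and 0.35, and all 3 calls were lost. CCN2, a matricellular ligand, rose by 0.75, 0.89 and 1.13 in the same order (adjusted p = 5.0e-06, 1.4e-06 and 9.1e-08). COL18A1, a basement membrane collagen, rose by 0.60 in siMESH1 (adjusted p = 1.3e-06) and 0.64 with both (adjusted p = 5.4e-07), and LAMC1, the common laminin gamma chain, by 0.71 with both (adjusted p = 2.9e-07). The laminin chains LAMA5 and LAMB2 were higher with both siRNAs than with siMESH1, by 0.64 (adjusted p = 4.9e-05) and 0.58 (adjusted p = 0.0012), the latter under the minimum with housekeeping centring (0.48). All probe sets of COL18A1, LAMA5 and LAMB2 may cross-hybridise, so their changes could not be read without such probe sets.

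NID1, a nidogen that links laminin to type IV collagen, was the other ligand called lower in siMESH1 (-0.73, adjusted p = 5.9e-06), and it was lower there than in siATF4 (-0.61, adjusted p = 2.7e-05). Both calls were lost under housekeeping centring, at -0.40 and -0.43. Its interaction was 0.51 (adjusted p = 0.0067), with its probe sets at -0.02 and 1.04, and that call was lost under housekeeping centring (0.25). It was also lost when any of 6 arrays was left out, namely siMESH1 replicate 1 or 3, siMESH1+siATF4 replicate 2 or 3, siNT replicate 1 or siATF4 replicate 1. The median of the 37 ligands was 0.08 in siMESH1, 0.16 in siATF4 and 0.12 with both.

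On the cytoplasmic side, of 29 measured activators and adaptors 1 was called in siMESH1, 1 in siATF4 and 2 with both, all higher, a smaller share than the 8.19%, 6.52% and 9.65% of all genes called, and their medians were 0.08, 0.11 and 0.12. FERMT2, a kindlin that binds beta tails, rose by 0.62 ± 0.06 in siATF4 (adjusted p = 3.9e-06) and 0.97 ± 0.06 with both (adjusted p = 3.6e-08), and all 3 of its probe sets may cross-hybridise. NCK2, an adaptor, rose by 0.53 ± 0.05 in siMESH1 (adjusted p = 4.1e-06). PARVA, a parvin that binds actin, rose with both (0.52, adjusted p = 0.00053), a call lost without siNT replicate 3 or siMESH1+siATF4 replicate 2. With both siRNAs against siMESH1, TNS2, a tensin, was higher (0.51, adjusted p = 0.003) and CAV1, a caveolin, lower (-0.52, adjusted p = 1.9e-05). The TNS2 call was lost under housekeeping centring (0.40) and without siMESH1 replicate 3 or siMESH1+siATF4 replicate 1. The CAV1 call was lost without probe sets that may cross-hybridise (-0.46) and without siMESH1 replicate 1 or siMESH1+siATF4 replicate 1 or 2. Of 6 inhibitors and tail binders DAB2, an endocytic adaptor of beta tails, was the 1 called, at 0.72 ± 0.05 in siMESH1 (adjusted p = 8.1e-08) and 0.51 ± 0.05 with both (adjusted p = 1.7e-06). The latter call was lost under array median centring (0.49) and without probe sets that may cross-hybridise (0.48). It was also lost without siNT replicate 3 or siMESH1+siATF4 replicate 3. Of 12 genes of endocytosis and recycling, RAB11FIP1 rose by 0.90 ± 0.11 in siMESH1 (adjusted p = 3.7e-05) and 0.58 ± 0.11 with both (adjusted p = 0.0011), by 1 probe set that may cross-hybridise. RAB21, a small GTPase that binds alpha tails, was lower in siMESH1 than in siATF4 (-0.53, adjusted p = 1.3e-05), or -0.34 under housekeeping centring.

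Of 18 membrane partners, 4 fell in siMESH1, where 5.37% of all genes were called lower and the partners' median was -0.14, beside 0.04 in siATF4 and 0.06 with both. These were PLAUR, the urokinase receptor (-0.82; adjusted p = 1.6e-07), CD44, a hyaluronan receptor (-0.63; adjusted p = 1.4e-07), SDC1, a syndecan (-0.55; adjusted p = 1.9e-06), and CD9, a tetraspanin (-0.55; adjusted p = 5.0e-05). Each lost its call under housekeeping centring, to -0.49, -0.30, -0.22 and -0.22, and CD44 also without probe sets that may cross-hybridise (-0.48). PLAUR and CD9 had interactions of 0.68 (adjusted p = 9.6e-05) and 0.84 (adjusted p = 0.00012). Under housekeeping centring these were 0.42 and 0.59, and the call of the PLAUR interaction was lost. SDC4, the syndecan of focal adhesions, rose by 0.72 in siATF4 (adjusted p = 3.7e-07) and 0.93 with both (adjusted p = 1.7e-08), in the groups in which ITGA5 rose. Unlike ITGA5, which was at 0.06 there, SDC4 was also higher in siMESH1 (0.28, adjusted p = 0.0007), under the fold minimum. NRP1, a co-receptor for VEGF and semaphorins, fell with both (-0.57, adjusted p = 4.0e-06), or by less than the fold minimum under housekeeping centring (-0.35), and its 3 probe sets differed in sign, the highest at 0.18. CAV2, the caveolin that pairs with CAV1, was lower with both than with siMESH1 (-0.60, adjusted p = 2.7e-06). Of 8 latent TGF-beta genes and carriers 1 was called, LTBP2 in siATF4 (0.54; adjusted p = 0.00013), a call lost without siNT replicate 3. Of 4 hemidesmosome genes LAMB3 was the one called, and their median was -0.14 in siMESH1, 0.11 in siATF4 and 0.10 with both.

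**Figure D5:**
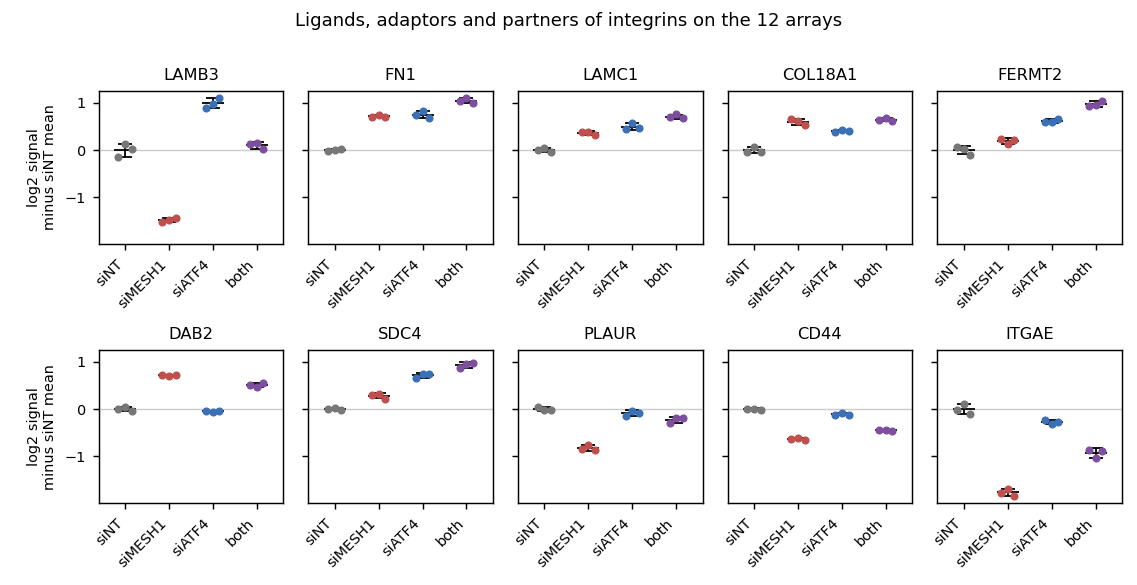
Log2 signal minus the siNT mean on the 12 arrays for 10 genes that bind or work with integrins, drawn as points for arrays with the group mean and SD (n = 3). LAMB3 is lowest in siMESH1 and highest in siATF4, FN1, LAMC1, FERMT2 and SDC4 are highest with both siRNAs, and ITGAE is lowest in siMESH1.

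Markers of the line and of other cells were followed as changes. Of 5 renal carcinoma markers measured, KRT18, an epithelial keratin, was called lower in siMESH1 (-0.54 ± 0.06; adjusted p = 3.0e-05; -0.21 under housekeeping centring), a call lost without siNT replicate 2, and higher with both (0.63 ± 0.06; adjusted p = 6.3e-06). It was 2.24-fold higher with both than with siMESH1 (1.16, adjusted p = 7.7e-08), with an interaction of 0.67 (adjusted p = 0.00037; 0.41 under housekeeping centring). KRT8, its keratin partner, was also higher with both than with siMESH1 (0.54, adjusted p = 0.00011), a call lost under housekeeping centring (0.43) and without siMESH1 replicate 3. KRT8 and KRT18 were each measured by 1 probe set, of the kind that may cross-hybridise. ITGA6 had the same signs as KRT18 in siMESH1 and in both against siMESH1. In siATF4 KRT18 was at 0.495 (adjusted p = 7.7e-05), under the fold minimum, and ITGA6 at 0.06. With both against siNT ITGA6 was at -0.11, opposite in sign to KRT18. Of 9 markers of leukocytes, endothelium and pericytes limma called 0 in each of the 7 comparisons, 0 to 3 of them had an unadjusted p under 0.05 in a comparison (24.3% to 43.1% of all genes), and their medians ranged from -0.04 to 0.0063. In RNA from whole cultures, fewer cells that express a subunit and less of its RNA per cell cannot be told apart.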

How the data were processed

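RCC4 cells were profiled on 12 Affymetrix human arrays, 3 for each of 4 siRNA groups. Values were deposited on the log2 scale, made by the authors with RMA in Affymetrix Expression Console and set relative to siNT, whose mean lay within 1.2e-04 of 0 for every probe set. For neither tool is a version given in the sources used here. The table holds no levels, so genes were not filtered. Columns without a label numbered 0, as did pairs of identical arrays.

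Of 22277 probe sets, 62 were controls, 2108 had no gene symbol and 1043 several. The other 19064 were named through the platform annotation, 19052 of them matched to RefSeq (GRCh38.p14) by Entrez identifier, and averaged per gene. IDs ending in _s_at or _x_at were taken as probe sets that may cross-hybridise. All arrays entered a single fit in limma 3.58.1 (lmFit, eBayes; R 4.3.3) with 1 mean for each group and no replicate block (8 residual degrees of freedom, prior 4.32), checked on simulated data. A call needed a p under 0.05 after Benjamini-Hochberg adjustment over all genes and a log2 change of 0.5 or more in size, the minimum that the study's methods set.

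The members and lists were chosen with earlier results of these data known. Named were all 10 subunits, the silenced genes, called genes among the 4 with the smallest adjusted p per list and comparison, and the 3 genes most correlated with the subunit of the largest called change, which was also the one called in the interaction. Alternatives were array median and housekeeping centring, other handling of probe sets, robust eBayes, fits of the compared groups alone, the methods' t-test, other fold minimums, the replicate number as a block, and each array left out in turn. Python 3.11.15, pandas 2.3.3, numpy 2.4.6 and matplotlib 3.10.9 were also used.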

Additional observations from a re-analysis of the deposited data

Results flagged for a closer look

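The change of 2 integrin subunits with siMESH1 differed between cells without and with siATF4 by the interaction test. For ITGA1 the difference was -0.80 on the log2 scale (1.03 without siATF4 and 0.23 with it), and for ITGA6 it was 0.46 (-0.62 without and -0.16 with it), the latter under the fold minimum. The ITGA6 value no longer passed the adjusted p under housekeeping centring or without the probe set that may cross-hybridise. Taken singly, its probe sets had adjusted p-values of 0.06 and 0.16 by limma.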

How the results depend on the processing

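The table holds changes and no signal, so what dim probe sets limit was not tested. The replicate numbers did not pair the arrays: over 18 pairs of the same number in different groups, deviations correlated at -0.19 to 0.10 (median 0.015), and 2 of 12 arrays correlated best with their own number. With the replicate block the counts of called subunits were 2, 2, 2, 2, 0, 2 and 1, as without it, in the order siMESH1, siATF4 and both against siNT, both against siMESH1 and against siATF4, siMESH1 against siATF4, and the interaction. The methods' t-test called 2, 2, 2, 2, 0 and 2 in the first 6, before and after adjustment, and 0 of the 9 markers of other cells before it. Housekeeping centring gave 1 called subunit in siMESH1 (23.5% of all genes called), 1 in both against siMESH1 (6.78%) and 1 in siMESH1 against siATF4 (11.1%). No fold minimum gave 5, 3, 4, 4, 2, 7 and 2, and a minimum of 1 on the log2 scale gave 1 in siMESH1 and 0 elsewhere. Leaving out 1 array gave 2 to 2, 2 to 2, 2 to 2, 1 to 2, 0 to 0, 2 to 3 and 1 to 2, the last with ITGA6 past the fold minimum without siNT replicate 3 or siMESH1 replicate 2. Over all genes, calls ranged from 239 to 4019 (980 as reported), 170 to 3421 (780), 281 to 4254 (1154), 93 to 3348 (730), 21 to 1403 (195), 165 to 4004 (1036) and 102 to 1457 (516) over the alternatives, the ends set mostly by the fold minimum. Housekeeping centring moved the median of all genes in siMESH1 to 0.36. It turned the sign of changes that had not been called, in siMESH1 for ITGA3 (0.32), ITGAV (0.074) and ITGB8 (0.047), in siATF4 for ITGA2 (0.036), with both against siNT for ITGA6 (0.12) and ITGAV (0.090), in both against siMESH1 for ITGA2 (-0.080), ITGB1 (-0.067) and ITGB4 (-0.013), in both against siATF4 for ITGA3 (0.037), ITGB4 (0.061) and ITGB5 (0.026), in siMESH1 against siATF4 for ITGB1 (0.16), ITGB4 (0.073) and ITGB5 (0.15), and in the interaction for ITGA2 (-0.12), ITGA5 (-0.26), ITGAV (-0.13) and ITGB8 (-0.089). Array median centring turned ITGA3 in the interaction (0.0071), ITGAV in siATF4 (-0.017) and ITGB4 in siMESH1 (-0.0051). Taking the probe set with the smallest p turned ITGB1 in both against siATF4 (-0.16), ITGB4 in siMESH1 (-0.14) and ITGB5 in both against siMESH1 (0.20). Leaving out probe sets that may cross-hybridise turned that ITGB5 change (0.20) and ITGB1 in the interaction (0.12), siATF4 (-0.032), siMESH1 against siATF4 (0.016) and siMESH1 (-0.017), and left ITGA3 untested. Leaving out 1 array turned some uncalled changes near 0, whose ranges were -0.032 to 0.016 for ITGA3 in siMESH1, -0.037 to 0.042 for ITGAV in siATF4, -0.033 to 0.079 for ITGA2 and -0.059 to 0.031 for ITGB5 in both against siMESH1, -0.019 to 0.11 for ITGA5, -0.0098 to 0.034 for ITGB1 and -0.053 to 0.021 for ITGB4 in both against siATF4, -0.058 to 0.0010 for ITGB5 in siMESH1 against siATF4, and -0.053 to 0.0040 for ITGA3, -0.078 to 0.047 for ITGA5 and -0.074 to 0.0001 for ITGB4 in the interaction. The cause of these turns was not tested.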
